A study of Mus musculus with 6 samples.

Results

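Transforming growth factor beta (TGF-beta) genes were followed in macrophage cultures from mice with floxed Hdac2, with and without a Cre recombinase. The set held 10 genes of the 17313 in the deposited table, taken by symbol: the ligands Tgfb1, Tgfb2 and Tgfb3, the receptors Tgfbr1, Tgfbr2 and Tgfbr3, the latent binding protein genes Ltbp1, Ltbp2 and Ltbp3, and the matrix gene Tgfbi. All 10 were present and all 10 passed the filter on low values.

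The libraries came from macrophages grown from mouse bone marrow on the C57BL/6 background. Every mouse carried floxed Hdac2 alleles (Hdac2fl/fl) and had been injected by vein with LLC1 cells, a Lewis lung carcinoma line, 20 days before the marrow was taken. The 3 libraries called WT came from mice without Cre, and the 3 called KO from mice with LysMCre as well, a Cre recombinase driven by the lysozyme gene Lyz2 and active in myeloid cells. Hdac2 encodes a histone deacetylase. The sources used here give neither the ages of the mice nor the culture conditions, nor do they say whether each library stands for a separate mouse. The p-values below therefore describe library-to-library spread, which may be technical. Values are read counts scaled per library and rounded by the authors, called scaled counts below.

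TGF-beta ligands are made as precursors whose propeptide stays wrapped around the mature ligand and keeps it latent. LTBP proteins bind this latent complex and tether it to fibrillin and fibronectin in the matrix, except LTBP2, which binds fibrillin but not the latent ligand. Once released, the ligand binds the type II receptor (Tgfbr2), which recruits and phosphorylates the type I receptor (Tgfbr1), and SMAD2 and SMAD3 carry the signal to the nucleus. Tgfbr3, betaglycan, is a co-receptor that presents ligand, TGF-beta 2 above all. Macrophages are known mainly for making TGF-beta 1, while fibroblasts and other mesenchymal cells also make the other ligands.

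The libraries differed in more than genotype. Hdac2 stood at 482 to 534 scaled counts in WT and at 375 to 392 in KO, so KO libraries kept 0.752 of the WT mean. These values cover the whole gene, not the floxed part alone, and the difference did not pass the limma test (adjusted p = 0.158). Xist, the RNA of the silenced X chromosome, was at 3298 to 5243 in WT 1 and the KO libraries and at 0 and 74 in WT 2 and WT 3. The Y-linked genes Ddx3y, Kdm5d, Eif2s3y and Uty were at 179 to 745 in WT 2 and WT 3, at 23 to 44 in WT 1 and at 0 to 10 in KO. WT 1 thus lay with the KO libraries in these genes, and the plot of log2 differences shows the 10 genes also without WT 1 and against WT 1 alone. Without WT 1, genotype and this split cannot be told apart.

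The 10 genes fell into 2 kinds of pattern. Tgfb2, Tgfb3, Ltbp1 and Ltbp2 were higher in every KO library than in any WT library, by 2.44 to 3.98 times in the means. Tgfb1, the 3 receptors, Tgfbi and Ltbp3 overlapped between the groups, with KO means of 0.889 (Tgfb1) to 1.08 (Tgfbi) times the WT means. Of the 10 genes, 4 lay without overlap higher in KO, against 16.1% of the 13260 genes tested, and 0 lower, against 13.4%. In these 4 genes WT 1 lay above WT 2 and WT 3 and below every KO library, an order shared by 12.5% of all genes tested. This grouping was made after the values were seen and carries no test.

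The sequences before the start sites of 4 of these genes are shown first. They set Tgfb1, the ligand whose groups overlapped, beside Tgfb2, Ltbp1 and Ltbp2, whose groups did not. The RefSeq promoter table (GRCm38.p6, the mm10 assembly) held 10 start sites for 8 of the 10 genes, and those of Tgfb3 and Tgfbr3 were not used here. Each line runs 5′ to 3′ on the gene's strand and ends at the base before the RefSeq start, except that Ltbp2 ends at the base before its annotated GENCODE exon. Capitals mark 3 motifs, searched on both strands. The GC box, which SP1-type factors can bind, was searched as GGGCGG. The TATA box was searched as TATAAA and the cAMP response element as TGACGTCA.
Tgfb1, chr7:25686752-25687001, plus strand: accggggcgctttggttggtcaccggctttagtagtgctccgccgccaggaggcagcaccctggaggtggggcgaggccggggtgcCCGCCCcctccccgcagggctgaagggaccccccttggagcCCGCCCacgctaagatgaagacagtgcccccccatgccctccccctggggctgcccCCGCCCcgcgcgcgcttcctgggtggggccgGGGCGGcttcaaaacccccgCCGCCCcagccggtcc
Tgfb2, chr1:186705990-186706239, minus strand: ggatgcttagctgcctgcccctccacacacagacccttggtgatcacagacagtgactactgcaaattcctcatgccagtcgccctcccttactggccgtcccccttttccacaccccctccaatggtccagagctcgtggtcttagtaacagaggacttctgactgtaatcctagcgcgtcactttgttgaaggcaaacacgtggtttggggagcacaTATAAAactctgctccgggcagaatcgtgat
Ltbp1, chr17:75005279-75005528, plus strand: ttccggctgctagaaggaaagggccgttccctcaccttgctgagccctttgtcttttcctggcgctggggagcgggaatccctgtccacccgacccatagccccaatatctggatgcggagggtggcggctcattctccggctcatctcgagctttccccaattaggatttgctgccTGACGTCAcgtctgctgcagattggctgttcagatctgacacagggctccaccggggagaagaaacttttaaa
Ltbp2, chr12:84876533-84876741, minus strand: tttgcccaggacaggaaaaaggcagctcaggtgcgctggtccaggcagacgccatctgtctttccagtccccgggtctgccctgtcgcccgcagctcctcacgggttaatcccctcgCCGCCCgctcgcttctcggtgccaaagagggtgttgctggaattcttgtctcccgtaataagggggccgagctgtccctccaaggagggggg

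The Tgfb1 stretch held 5 GC boxes in 250 bases, and 75.2% of its bases were G or C. That of Tgfb2 held no GC box and a TATA box beginning 31 bases before the start, with 53.6% G or C. That of Ltbp1 held a cAMP response element beginning 73 bases before the start and no GC box. The stretch before another RefSeq start of Ltbp1, chr17:75178531-75178780, held none of the motifs. Which start these cells use was not tested. Ltbp2 had 2 GC boxes within 250 bases of its RefSeq start, of which 1 lies in the stretch printed. No match overlapped another. Among all 32851 promoters of the table, 32.7% held a GC box within 250 bases before the start, 12.4% a TATA box and 1.55% a cAMP response element. Of the 10 start sites of these genes, 4 held a GC box. Besides Tgfb1 and Ltbp2, these belonged to Tgfbr1 and Tgfbi, whose groups overlapped. The start sites of Tgfbr2 and Ltbp3, whose groups overlapped as well, held none of the motifs searched. A match describes letters, not a bound site, and the lack of one says only that these letters are not in the stretch searched.

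Among the ligands, Tgfb1 (ENSMUSG00000002603, chr7:25687002-25705077, mm10), the main form in immune cells, stood at 1167, 1330 and 1153 scaled counts in WT 1 to WT 3 and at 1038, 1050 and 1156 in KO 1 to KO 3. WT 2 was highest, and KO 3 (1156) lay above WT 3 (1153), so the groups overlapped. The log2 difference, KO minus WT on the log2(scaled count + 1) scale, was -0.17 ± 0.0756 (SE, n = 3 each), with a 95% interval from -0.35 to 0.02. It did not pass the limma test (adjusted p = 0.234 over all genes).

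Tgfb2 (ENSMUSG00000039239, chr1:186622792-186705989), a ligand that needs betaglycan for efficient binding, was at 438, 87 and 130 in WT, against 725, 580 and 508 in KO. WT 1 held 4.04 times the mean of WT 2 and WT 3 and still lay below every KO library. The log2 difference was 1.80 ± 0.576 (SE, n = 3 each), 95% interval 0.40 to 3.20, with a limma adjusted p of 0.159.

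Tgfb3 (ENSMUSG00000021253, chr12:86056745-86079041), the ligand known for its part in palate closure, was at 771, 157 and 268 in WT, against 1107, 953 and 855 in KO. It had the same order of libraries as Tgfb2, with WT 1 at 3.63 times the mean of WT 2 and WT 3. The log2 difference was 1.60 ± 0.55 (SE, n = 3 each), 95% interval 0.26 to 2.93, with a limma adjusted p of 0.166.

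The latent binding proteins split in the same way. Ltbp1 (ENSMUSG00000001870, chr17:75005568-75392512), which stores latent TGF-beta in the matrix, was at 297, 69 and 65 in WT, against 705, 580 and 432 in KO. It had the largest difference of the 10 genes, 2.34 ± 0.598 on the log2 scale (SE, n = 3 each), 95% interval 0.88 to 3.79, a KO mean 3.98 times the WT mean, and a limma adjusted p of 0.158. It ranked 236 by difference among the 13260 genes tested.

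Ltbp2 (ENSMUSG00000002020, chr12:84783212-84876532), a component of elastic fibres, was at 603, 206 and 215 in WT, against 975, 868 and 673 in KO. WT 1 was again between the other WT libraries and the KO libraries. The log2 difference was 1.47 ± 0.428 (SE, n = 3 each), 95% interval 0.43 to 2.51, with a limma adjusted p of 0.158.

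Ltbp3 (ENSMUSG00000024940, chr19:5740904-5758532), which also binds latent TGF-beta, was at 967, 1206 and 981 in WT, against 1009, 1027 and 1121 in KO. WT 2 was the highest library and WT 1 the lowest, with all KO libraries between them. The log2 difference was 0.0073, 95% interval -0.23 to 0.25 (limma adjusted p = 0.974).

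The receptors showed overlapping values throughout. Tgfbr1 (ENSMUSG00000007613, chr4:47353222-47414931), the signalling kinase, was at 2091, 1751 and 2091 in WT, against 1876, 2008 and 1862 in KO. Its log2 difference was -0.04, 95% interval -0.24 to 0.16 (limma adjusted p = 0.802), and it turned to 0.07 under cyclic loess. Tgfbr2 (ENSMUSG00000032440, chr9:116084293-116175360), the ligand-binding kinase, was at 1721, 1671 and 1540 in WT, against 1676, 1710 and 1722 in KO. Its log2 difference was 0.05 (-0.02 against WT 1 alone), 95% interval -0.08 to 0.18 (limma adjusted p = 0.60), the narrowest interval of the 10 genes.

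Tgfbr3 (ENSMUSG00000029287, chr5:107106570-107289629) was the scarcest member, at 73, 134 and 115 in WT, against 124, 114 and 90 in KO. Here WT 1 was the lowest of all 6 libraries, the reverse of its place among the WT libraries in Tgfb2 and Tgfb3. The log2 difference was 0.06, 95% interval -0.55 to 0.67 (limma adjusted p = 0.916), the widest interval among the 6 genes whose groups overlapped.

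Tgfbi (ENSMUSG00000035493, chr13:56609523-56639562) encodes a secreted adhesion protein first found as a gene induced by TGF-beta, and macrophages express it. It was at 1431, 1120 and 1228 in WT, against 1321, 1418 and 1358 in KO. WT 1 was the highest library, and the KO libraries lay between it and the other WT libraries. The log2 difference was 0.12, 95% interval -0.10 to 0.35 (limma adjusted p = 0.46).

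**Figure D1:**
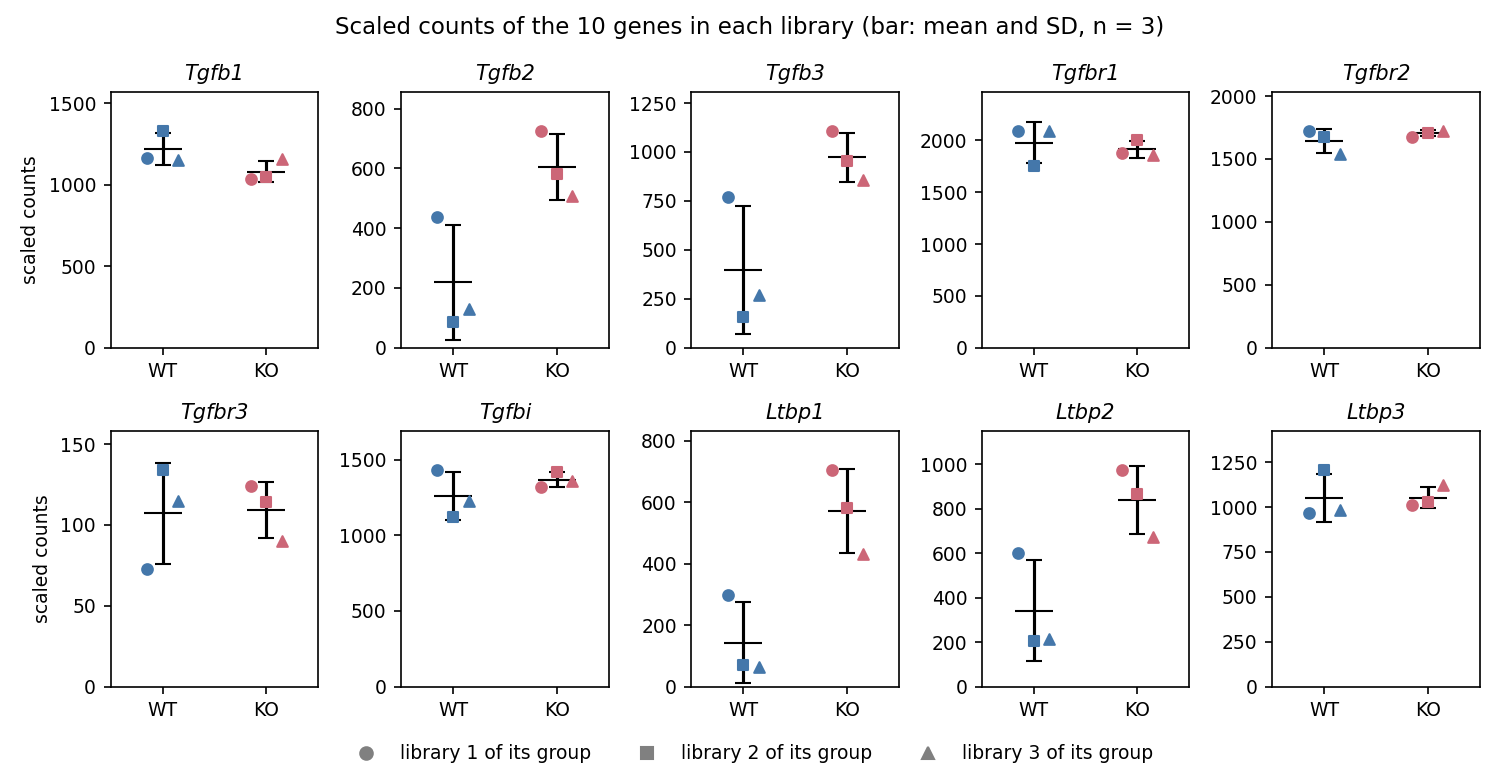
Scaled counts of each of the 10 genes in the 3 WT and 3 KO libraries, 1 panel per gene with its own axis from 0, points for libraries and bars for the mean and SD. In Tgfb2, Tgfb3, Ltbp1 and Ltbp2 every KO point lies above every WT point and WT 1 (circle) lies well above WT 2 and WT 3, while the other 6 panels overlap.

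With all 6 libraries, 0 of the 10 genes passed limma at an adjusted p under 0.05, as did 0% of all genes tested. At an unadjusted limma p under 0.05, 4 of the 10 were higher in KO, against 14.7% of all genes, and 0 were lower, against 9.68%. That count fell to 2 without WT 2, without WT 3 or without KO 1. The exact two-sided permutation test over the 6 libraries gave p = 0.1 for each of the 4, the smallest p that 3 against 3 libraries allow. Any gene whose groups do not overlap gets this p, so it only restates the lack of overlap. The median log2 difference of the 10 genes was 0.09, beside -0.0046 over all genes tested.

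Leaving out WT 1 changed these calls. Without WT 1, the same 4 genes were higher past the adjusted threshold, against 12.8% of all genes, and 0 were lower, against 5.07%. Their log2 differences were then 2.48 for Tgfb2 (limma adjusted p = 0.00143), 2.23 for Tgfb3 (0.0026), 3.05 for Ltbp1 (0.000735) and 1.97 for Ltbp2 (0.0011), all with 2 WT against 3 KO libraries. None of the other 6 passed, with Tgfbi nearest at 0.22 (adjusted p = 0.0731).

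Against WT 1 alone, which is assumed to vary like the KO libraries, 0 of the 10 genes passed the adjusted threshold, as for all genes. Every KO library lay above WT 1 in all 4 genes without overlap, as the lack of overlap requires. Of all genes tested, 28.4% had every KO library above WT 1. The log2 differences shrank to 0.45 for Tgfb2 (95% interval -0.11 to 1.01), 0.33 for Tgfb3 (-0.09 to 0.74), 0.92 for Ltbp1 (0.16 to 1.67) and 0.46 for Ltbp2 (-0.13 to 1.05), with limma adjusted p = 0.79 for each. Ltbp1 was the only one of the 10 with an unadjusted p under 0.05 in this fit, where 5.17% of all genes were higher and 1.06% lower at that level. Its KO mean was 1.93 times WT 1.

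**Figure D2:**
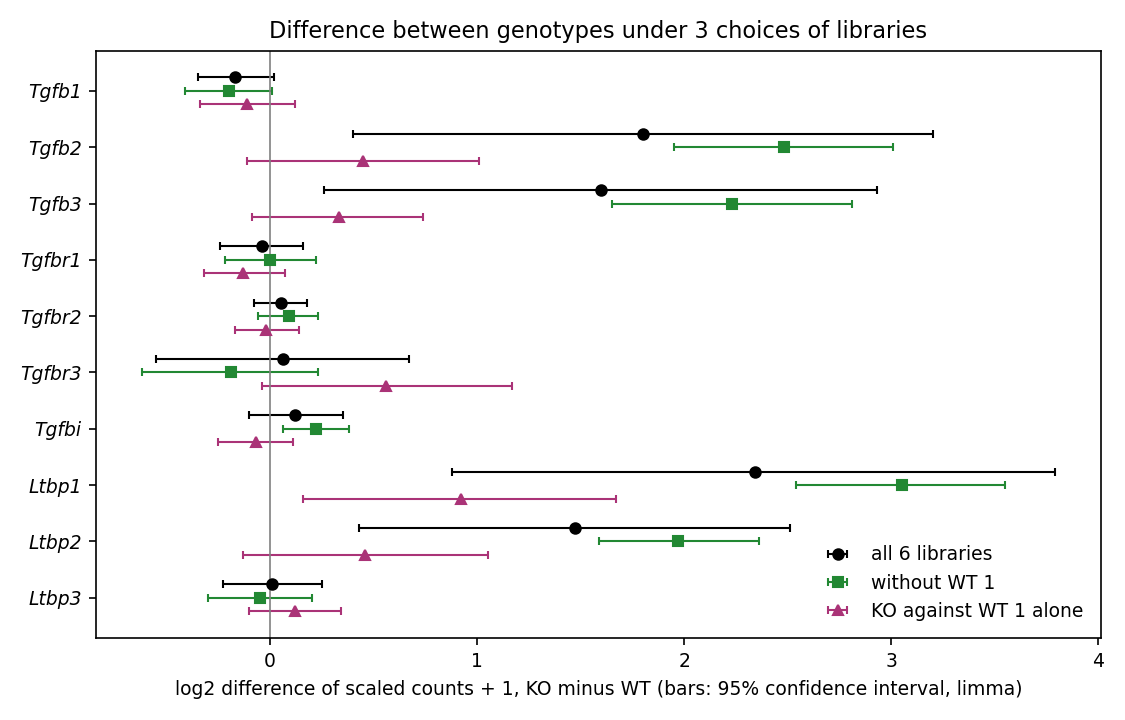
Log2 difference, KO minus WT, of each gene with its 95% confidence interval from limma, with all 6 libraries (circles), without WT 1 (squares) and against WT 1 alone (triangles). For Tgfb2, Tgfb3, Ltbp1 and Ltbp2 the 3 estimates spread widely, from 0.92 to 3.05 for Ltbp1, while those of the other genes stay near 0 except for Tgfbr3 against WT 1 alone at 0.56.

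Levels of different genes were compared as scaled counts per 1000 exonic bases, using the union of all annotated exons. Over the 6 libraries the order was Tgfbi at 348 ± 31.7 (SD, n = 6), Tgfbr1 at 298 ± 21.2, Tgfb1 at 228 ± 20.9, Tgfbr2 at 204 ± 8.42, Tgfb3 at 203 ± 114, Ltbp3 at 116 ± 10.3, Ltbp2 at 72.1 ± 39.4, Tgfb2 at 71.0 ± 43.8, Ltbp1 at 33.5 ± 24.7 and Tgfbr3 at 16.6 ± 3.46. The median gene tested stood at 67.6. Neighbours in this order overlapped in range from Tgfbi (297 to 379) and Tgfbr1 (268 to 320) down to Ltbp1 (6.08 to 65.9) and Tgfbr3 (11.2 to 20.5), except Tgfbr1 and Tgfb1 (206 to 264). With the longest transcript as length, Tgfb1 moved to 447 and the first place. The order also differed between the groups: Tgfb3 stood at 118 in WT, below Tgfb1 at 241, and at 287 in KO, above Tgfb1 at 214 and Tgfbr2 at 208 and close to Tgfbr1 at 293. Tgfb1 and both signalling receptors were thus among the more abundant genes of these cultures and betaglycan among the scarce ones, at the 18.8th percentile of tested genes. No gene of the table exceeded 1000 per 1000 exonic bases on average (highest 850), and 63 exceeded 500. Whether a ceiling of this kind compresses differences of abundant genes was not tested.

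The make-up of the ligands differed along with these levels. Tgfb1 made up 43.3%, 81.1% and 69.2% of the summed ligand level per 1000 exonic bases in WT 1 to WT 3 and 31.3%, 35.3% and 40.2% in KO 1 to KO 3. Tgfb3 made up 42.6%, 14.3% and 24.0% in WT, against 49.7%, 47.7% and 44.4% in KO, so it was the leading ligand by this measure in every KO library. Tgfb2 remained the least abundant at 4.62% to 14.1% in WT and 15.4% to 19.0% in KO. The place of Tgfb1 depended on the length used: with the longest transcript (2573 bases in place of 5042) it made up 46.2% to 56.1% in KO and stayed first in all 6 libraries. The summed ligand level was 397 ± 120 in WT and 606 ± 46.4 in KO (SD, n = 3), with WT 1 at 535.

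The latent binding proteins followed the same course. Ltbp3 made up 50.7%, 79.4% and 75.9% of the summed LTBP level per 1000 exonic bases in WT and 36.9%, 40.5% and 49.1% in KO. Ltbp1 and Ltbp2 together filled most of the remainder, with Ltbp2 at 35%, 15% and 18.4% in WT, against 39.5%, 38% and 32.7% in KO. Ltbp4, which is not one of the 10, never exceeded 2.21%. The receptors kept their proportions, with Tgfbr1 at 58.1% ± 3.34 of the summed receptor level in WT and 56.6% ± 0.872 in KO (SD, n = 3).

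**Figure D3:**
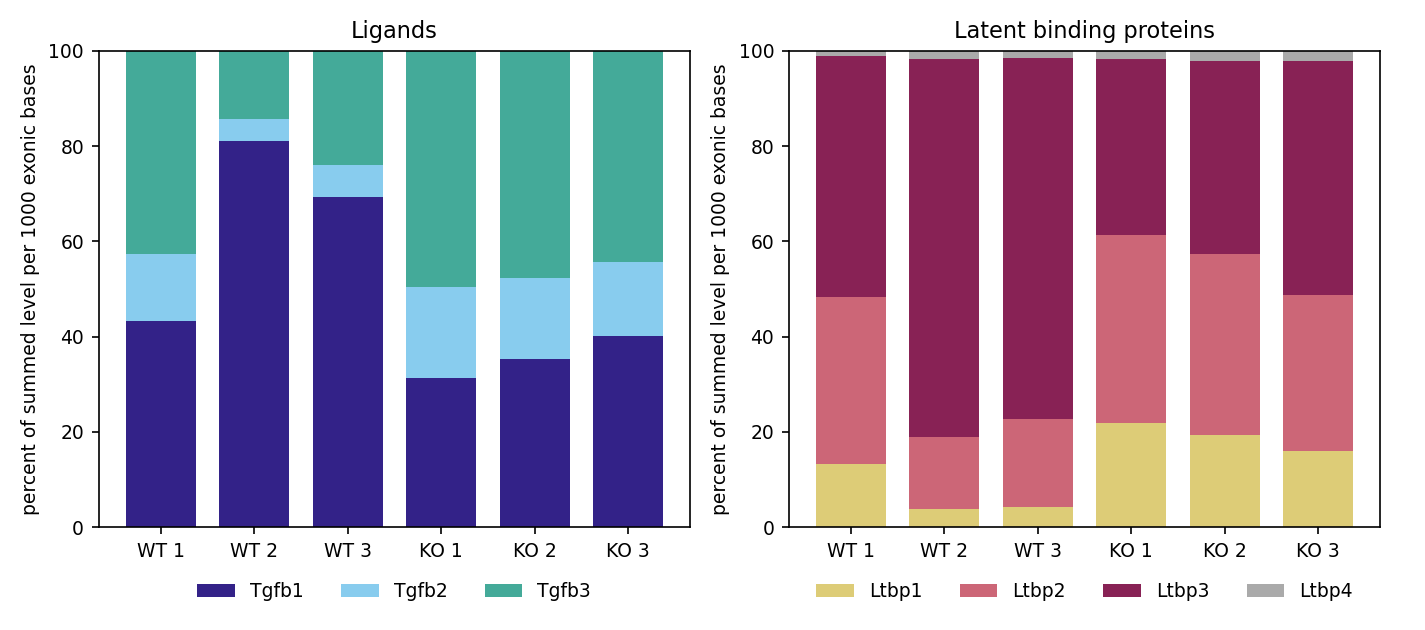
Share of each ligand gene (left) and each latent binding protein gene (right) in the summed level per 1000 exonic bases of its family, 1 bar per library. Tgfb1 and Ltbp3 fill most of the bars of WT 2 and WT 3 (81.1% and 79.4% in WT 2), while WT 1 resembles the KO bars.

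Markers of other cells were read beside these genes. All 10 macrophage markers were present, with Csf1r at 2504 to 2888 and Adgre1 (F4/80) at 1946 to 2493. Their summed level was 12055 to 12860 scaled counts in WT and 11065 to 11630 in KO. Of the 10, 8 lay lower in KO without overlap, against 13.4% of all genes tested. Among the 8 was Lyz2, the gene that drives the Cre of the KO mice, at 1055 to 1144 in WT and 930 to 953 in KO. Per 1000 exonic bases, Cd68 stood at 835, Adgre1 at 672 and Csf1r at 463, where the highest gene stood at 850. Whether a ceiling compresses the macrophage differences was not tested. The summed level of 14 fibroblast and marrow stroma markers was 17853, 7504 and 7922 in WT 1 to WT 3 and 23153, 21220 and 18509 in KO 1 to KO 3. In 13 of these 14 genes WT 1 exceeded both other WT libraries, an order not counted over all genes. Of the 14, 8 lay higher in KO without overlap, against 16.1% of all genes tested. Only Lepr and Lum were at 0 in any library, and Col1a1 was at 1798 to 3547 in WT and 3767 to 3953 in KO. Summed smooth muscle and pericyte markers were 1318 to 2964 in WT and 3375 to 3540 in KO, led by Acta2 at 648 to 1192. Like Tgfb2, Tgfb3, Ltbp1 and Ltbp2, the fibroblast sum was higher in WT 1 than in the other WT libraries. It was higher still in every KO library and fell from KO 1 to KO 3, as these genes did. The smooth muscle and pericyte sum also rose from the other WT libraries to WT 1 and then to KO. Within KO, however, that sum was highest in KO 3 (3540), where these genes were lowest. The part of either sum in the result was not tested. In bulk libraries fewer cells of a type and less RNA per cell cannot be told apart.

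The 4 genes were also expressed as a percent of the summed fibroblast markers of the same library. Ltbp1 equalled 1.66%, 0.92% and 0.82% of that sum in WT and 3.04%, 2.73% and 2.33% in KO, Tgfb2 2.45%, 1.16% and 1.64% against 3.13%, 2.73% and 2.74%. Tgfb3 equalled 4.32%, 2.09% and 3.38% in WT, against 4.78%, 4.49% and 4.62% in KO, and Ltbp2 3.38%, 2.75% and 2.71% against 4.21%, 4.09% and 3.64%. All 4 ratios were higher in every KO library than in any WT library, with WT 1 the highest WT library each time. The sum is weighted towards its most abundant markers Col1a1, Col1a2 and Col5a1, whose KO means were 1.62, 1.53 and 1.98 times the WT means. Fbn1, also in the sum, was at 2.41 times, close to Tgfb3 at 2.44 and Ltbp2 at 2.46 times. The ratios thus depend on the markers chosen. Per 1000 exonic bases, WT and KO means were 366 and 591 for Col1a1, 181 and 276 for Col1a2 and 190 and 378 for Col5a1. The 4 genes ran from 13.4 (Ltbp1) to 118 (Tgfb3) in WT and from 53.5 to 287 in KO. The highest gene averaged 850. Whether a ceiling compresses the marker sum, and so raises the ratios in KO, was not tested. The ratios describe these libraries and have no test.

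**Figure D4:**
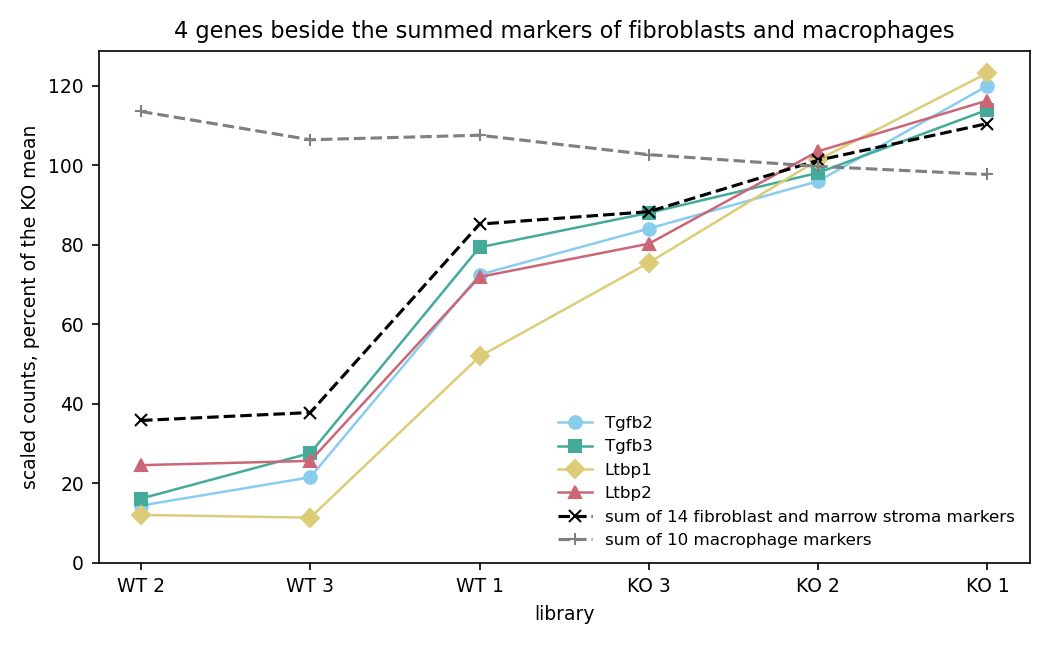
Scaled counts of Tgfb2, Tgfb3, Ltbp1 and Ltbp2 and the summed markers of fibroblasts and macrophages, each as percent of its KO mean, with the 6 libraries placed in the order of the summed fibroblast markers and lines only joining points of 1 quantity. The 4 genes and the fibroblast sum lie low in WT 2 and WT 3 and higher in WT 1 and KO, while the macrophage sum spans 11065 to 12860 scaled counts.

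Other cell types left weaker traces. Endothelial markers summed to 101 to 212 in WT and 172 to 196 in KO, and megakaryocyte and platelet markers, from cells rich in TGF-beta 1, to 347 to 405 and 334 to 343. Of the T cell list 3 of 7 genes were in the table and summed to 124 to 169 in WT and 160 to 219 in KO, mostly Cd4. Dendritic cell markers (3 of 5 in the table) summed to 1706 to 2370 and 1217 to 1590, nearly all of it Itgax, which macrophages also express. The B cell markers (2 of 5 in the table) summed to 21, 10 and 13 in WT and 29, 37 and 40 in KO, and the lone neutrophil marker S100a8 to 20, 23 and 26 against 15, 9 and 12. The epithelial or carcinoma markers (2 of 5 in the table) summed to 25, 10 and 2 in WT and 101, 74 and 78 in KO, nearly all of it the keratin Krt19. That KO sum was 6.84 times the WT sum and 3.37 times WT 1, and the part of these cells in the results was not tested.

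The genes whose pattern over the 6 libraries was closest to each member were sought among 11488 tested genes, by the root mean square difference of log2 values centred on each gene's mean. Nearest to Tgfb2 were Dpysl3 (0.0711) and Snhg18 (0.0941), and nearest to Tgfb3 were Cdh2, which encodes N-cadherin (0.0649), and Lhfp (0.0762). Ltbp1 was closest to Dysf, the gene of the membrane repair protein dysferlin (0.0498), and Fzd2, a Wnt receptor (0.0527), and Ltbp2 to the collagen chaperone gene Fkbp14 (0.0498) and Gpx7 (0.0547). Tgfb1 was closest to Parvb (0.0139) and Map2k1 (0.0148), and Tgfbr3 to Diablo (0.0829) and Rasgrp2 (0.108). For genes with little spread the measure separates little: 7248 genes lay within 0.2 of Tgfb1, against 116 for Tgfb2 and 55 for Ltbp1. Among the members themselves, Tgfb2 and Tgfb3 differed by 0.132 and Tgfb1 and Ltbp3 by 0.0961.

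The wider pathway was read in 6 lists, and no gene of any list passed limma at an adjusted p under 0.05 with all 6 libraries. The shares to read their counts against, over all genes tested, are 16.1% higher and 13.4% lower without overlap, and 14.7% higher and 9.68% lower at an unadjusted p under 0.05. Of all 13260 genes tested, 6510 were higher in the KO mean. The 8 of 14 accessory receptors, 10 of 17 SMADs and 7 of 14 brakes given below are not far from that share. Among 21 tested latency anchors and activators, 15 were higher in the KO mean, 7 lay without overlap higher and 3 lower, and 8 were higher and 3 lower at an unadjusted p under 0.05. The 3 of 21 lower without overlap are near the share of all genes. The list median was 0.16, and 0.0091 against WT 1 alone. Lrrc32, which encodes the cell surface anchor GARP, was at 447, 205 and 137 in WT, against 651, 620 and 556 in KO (log2 difference 1.38 ± 0.408 SE, 1.85 without WT 1 and 0.44 against WT 1 alone). Fbn1, the fibrillin to which LTBPs attach, was at 2334, 698 and 690 against 3257, 2955 and 2751, and it is also one of the fibroblast markers. The metalloproteinase gene Mmp14 was at 863, 285 and 291 against 1087, 1039 and 978, and the plasminogen activator gene Plat at 123, 27 and 29 against 175, 143 and 149.

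Ltbp4, the remaining LTBP gene, did not show WT 1 between the groups. It was at 15, 18 and 13 in WT, against 35, 37 and 36 in KO, with WT 1 among the other WT libraries (log2 difference 1.19 ± 0.204 SE, n = 3 each, limma adjusted p = 0.158). Against WT 1 alone its difference was 1.21, about that with all libraries. Nrros, which anchors latent TGF-beta 1 on macrophages and microglia and was picked out after its values were seen, was at 1234, 1430 and 1298 in WT, against 1021, 1042 and 1225 in KO, without overlap. Its log2 difference was -0.27 ± 0.0913 (SE, n = 3 each), and -0.18 against WT 1 alone. In Nrros WT 1 was the lowest WT library and lay next to KO 3, and without WT 1 the limma adjusted p was 0.0795.

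Among 14 tested accessory receptors and ligand traps, 8 were higher in the KO mean, 4 lay without overlap higher and 2 lower, against 16.1% and 13.4% of all genes tested, and the median was 0.14 (0.07 against WT 1 alone). The perlecan gene Hspg2 was at 2772, 838 and 951 in WT, against 3929, 3620 and 3372 in KO. Vasn, which encodes a TGF-beta-binding membrane protein, was at 328, 138 and 114 against 436, 397 and 396. The decoy receptor gene Bambi lay lower, at 104, 126 and 119 in WT, against 79, 79 and 100 in KO (log2 difference -0.44 ± 0.143 SE, -0.51 without WT 1 and -0.28 against WT 1 alone). The type I receptor gene Acvr1 was at 456, 418 and 397 against 525, 465 and 492, and the matrix proteoglycan gene Fmod at 147, 49 and 57 against 347, 328 and 128.

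Among 17 tested SMADs and intracellular mediators, 10 were higher in the KO mean, and the median was 0.06 (0.02 against WT 1 alone). Without overlap, 4 lay higher and 2 lower, against 16.1% and 13.4% of all genes tested. At an unadjusted limma p under 0.05, 5 were higher and 0 lower, against 14.7% and 9.68% of all genes. Smad3, a main carrier of the signal, was at 579, 353 and 359 in WT, against 704, 628 and 622 in KO (log2 difference 0.63 ± 0.198 SE, 0.87 without WT 1 and 0.17 against WT 1 alone). The inhibitory SMAD genes were Smad6, at 86, 32 and 44 against 150, 92 and 112, and Smad7, at 224, 182 and 174 against 275, 224 and 251. Smad5, of the BMP branch, was at 585, 544 and 523 against 635, 630 and 587. The coactivator gene Crebbp was at 820, 840 and 814 in WT, against 908, 890 and 919 in KO, without WT 1 standing apart.

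The 14 tested intracellular brakes split into 7 with a higher and 7 with a lower KO mean, and their median was 0.03 (-0.0083 against WT 1 alone). Pmepa1, a TGF-beta-induced inhibitor of SMAD2 and SMAD3 signalling, was at 456, 99 and 102 in WT, against 698, 644 and 551 in KO (log2 difference 1.91 ± 0.59 SE, 2.63 without WT 1 and 0.46 against WT 1 alone). The corepressor gene Tgif1 was at 673, 852 and 720 against 603, 620 and 634, and its relative Tgif2 stood at 34, 13 and 13 against 34, 43 and 49. Smurf2, a ubiquitin ligase for the receptors, was at 800, 676 and 703 against 859, 826 and 812, and Rnf111, whose product Arkadia is a ubiquitin ligase that targets inhibitors of the pathway, at 895, 1027 and 957 against 860, 864 and 890.

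Of 31 tested genes commonly used as TGF-beta targets, 25 were higher in the KO mean, 16 lay without overlap higher and 2 lower, against 16.1% and 13.4% of all genes tested. At an unadjusted p under 0.05, 20 were higher and 3 lower, against 14.7% and 9.68%. The median was 0.70 with all libraries and 0.09 against WT 1 alone. Snai1, a transcription factor of mesenchymal transition, had values of 48, 15 and 12 in WT against 89, 99 and 84 in KO (log2 difference 2.08 ± 0.50 SE, 2.66 without WT 1 and 0.90 against WT 1 alone). The cell cycle inhibitor gene Cdkn2b was at 143, 128 and 85 against 245, 216 and 178. Bhlhe40, a transcriptional repressor that macrophages express, lay lower at 619, 756 and 690 against 496, 527 and 540 (-0.40 ± 0.083 SE, -0.47 without WT 1 and -0.25 against WT 1 alone). The list holds Ltbp2 and Tgfbi, the brakes Pmepa1 and Skil, Smad7 of the SMAD list, Fn1 of the latency list, the smooth muscle markers Acta2 and Tagln and 4 of the fibroblast markers, so these genes are counted in more than 1 place.

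Of 33 other ligands, receptors and antagonists of the superfamily, 26 were in the table and 19 were tested. Of these, 14 were higher in the KO mean and 7 lay without overlap higher and 0 lower, against 16.1% and 13.4% of all genes tested, with a median of 1.01 (0.15 against WT 1 alone). The activin antagonist gene Fst was at 39, 9 and 16 in WT, against 160, 97 and 51 in KO (log2 difference 2.30 ± 0.619 SE, 2.84 without WT 1 and 1.23 against WT 1 alone). Its relatives were Fstl1, at 1355, 541 and 604 against 1671, 1558 and 1382, and Fstl3, at 118, 28 and 37 against 179, 138 and 139. Bmp1, a protease that cleaves procollagen and LTBP1, was at 917, 277 and 272 against 1188, 1069 and 1075, and the BMP antagonist gene Nbl1 at 136, 47 and 36 against 248, 184 and 177. WT 1 stood above WT 2 and WT 3 in all 5 of these genes.

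**Figure D5:**
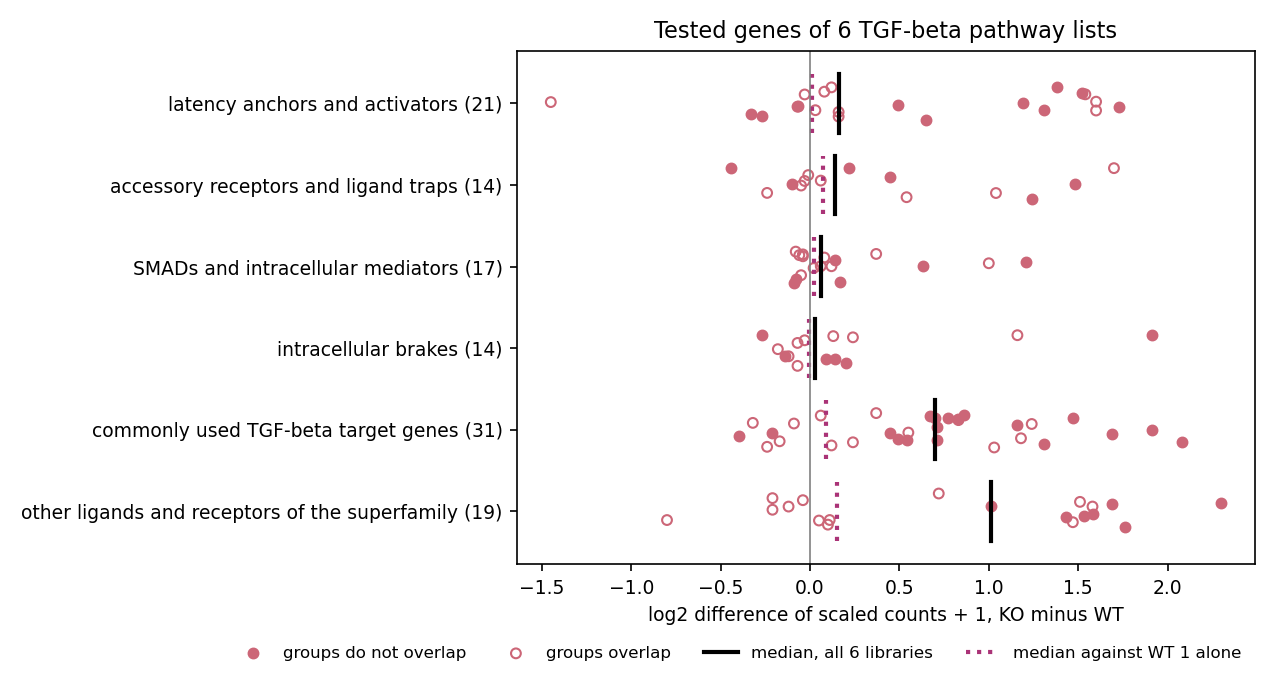
Log2 difference, KO minus WT, of each tested gene in the 6 lists, with the number tested in brackets. Filled points mark genes whose groups do not overlap, the solid bar is the list median with all 6 libraries and the dotted bar the median against WT 1 alone. The medians of the target list (0.70) and the superfamily list (1.01) move to 0.09 and 0.15 against WT 1 alone.

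Without WT 1, the counts past the limma adjusted threshold were 9 higher and 1 lower among the latency anchors and activators, 5 and 0 among the accessory receptors, 3 and 0 among the SMADs, 3 and 1 among the brakes, 21 and 2 among the targets and 9 and 1 in the superfamily list. Over all genes tested that fit gave 12.8% higher and 5.07% lower, and the 3 of 17 SMADs and 3 of 14 brakes that were higher are not far from that share. Against WT 1 alone no gene of any list passed. The fibroblast and stroma markers gave 9 higher and 0 lower without WT 1, with medians of 1.09 with all libraries and 0.30 against WT 1 alone. The lists were not tested against these markers.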

How the data were processed

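RNA was measured by stranded poly(A) sequencing with single reads of 72 bases, per the labels' protocols. The deposited values are treated as a score: read counts per gene that the authors scaled per library and rounded, since totals were nearly equal (5704313 to 5837994) and values such as 6, 17, 29 and 40 never occurred in WT 2. Exact reads and depth are therefore unknown, and no count model was fitted. The authors' tools, per the submitters' processing notes and with no role stated, were DESeq2 1.36.0, featureCounts 2.0.3, STAR 2.7.10a, Trimmomatic 0.39 and Picard 2.27.4, with mm10 as build.

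The 13260 genes reaching 10 scaled counts in 3 or more libraries were tested on log2(value + 1) with limma 3.58.1 (R 4.3.3, intensity trend, group as the only term), two-sided, with Benjamini-Hochberg adjustment over all of them. The script was tested on simulated data. Alternatives were other pseudocounts, filters and scalings, a replicate block, each library left out and WT 1 as the only WT library. Exonic lengths came from GENCODE M21, to which 17297 genes matched by identifier, 99.1% with the same start and end. The members and lists were chosen with earlier results of these data known. The text names all members, up to 5 genes per list by smallest p with a mean of at least 20, up to 3 markers per list by level, and the 2 nearest genes of members. Same-numbered WT and KO libraries did not deviate together consistently (r of 0.534, -0.364 and 0.0238 across genes). The largest r, 0.618, was between WT 2 and KO 3, so the numbers were not taken as pairs.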

Additional observations from a re-analysis of the deposited data

How the results depend on the processing

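The 4 genes Tgfb2, Tgfb3, Ltbp1 and Ltbp2 were higher in KO in all 16 alternatives run for each. Since their groups do not overlap, this sign could have turned only under the other scalings. The log2 differences were 0.45 to 2.48, 0.33 to 2.23, 0.92 to 3.05 and 0.46 to 1.97. The 4 genes passed the adjusted threshold in 1 alternative, the fit without WT 1. Tgfb1 was lower in all 16, from -0.22 to -0.09, and never passed. The number of the 10 genes past the adjusted threshold and higher in KO ran from 0 to 4 when each library was left out. At an unadjusted p under 0.05 it ran from 2 to 5 (5 without WT 1, 2 without WT 2, WT 3 or KO 1) and was 1 against WT 1 alone, and the number lower ran from 0 to 1 and was 1 with TMM factors.

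Signs of small differences turned, with leave-one-out ranges given for the same genes. Tgfbr1 was 0.07 under cyclic loess and 0.00057 without WT 1 or without WT 3, down to -0.13 without WT 2. Tgfbr3 was -0.0088 under cyclic loess, -0.19 without WT 1 and -0.04 without KO 1, up to 0.24 without WT 2. Ltbp3 was -0.0039 with TMM factors, -0.05 without WT 1 and -0.04 without WT 3 or KO 3, up to 0.11 without WT 2. Against WT 1 alone Tgfbr2 was -0.02 and Tgfbi -0.07. List medians against WT 1 alone were 0.0091 (latency), 0.07 (accessory receptors), -0.0083 (brakes), 0.09 (targets) and 0.15 (superfamily). With a mean value of at least 100 the accessory median was 0.06 and that of the brakes -0.03, and the brakes were 0.09 under cyclic loess and 0.0079 to 0.07 when each library was left out. With the longest transcript as length, levels per 1000 bases were 447 for Tgfb1, 338 for Tgfbr1, 437 for Tgfbi and 184 for Ltbp3. The cause was not tested for any of these.

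The replicate block left 0 of the 10 genes past the adjusted threshold and 4 higher at an unadjusted p, with adjusted p-values of 0.134 for Tgfb2, Ltbp1 and Ltbp2 and 0.147 for Tgfb3. The count tests listed as alternatives (edgeR and DESeq2) were not run because the values are not unaltered counts. Rounding and unknown depth limit genes with low values, such as Ltbp4, most.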

Other observations

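Ltbp2 and Tgfb3 are neighbours on chromosome 12, 1180212 bases apart in mm10. Of the 16 tested genes between them, 5 lay without overlap higher in KO (Erg28, Jdp2, Pgf, Prox2 and Batf) and 3 lower, against 16.1% and 13.4% of all genes tested, and their median log2 difference was 0.03, beside 1.47 for Ltbp2 and 1.60 for Tgfb3. Within 1000000 bases on either side of Tgfb2, 0 of 4 tested genes lay without overlap in either direction, and around Ltbp1 2 of 11 did, both higher (Fam98a and Memo1). Around Tgfbr1, whose own groups overlapped, 8 of 15 tested genes lay lower without overlap, against 13.4% of all genes tested. That was the highest such share among the 10 genes. The count lower was 2 of 26 around Tgfb1, 2 of 21 around Tgfb3, 0 of 3 around Tgfbr2 and 2 of 13 around Tgfbr3. It was 2 of 12 around Tgfbi, 4 of 35 around Ltbp2 and 7 of 82 around Ltbp3.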
